A study of Mus with 96 samples.

Results

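The 10 genes described here encode the main apolipoproteins made by the liver and, with them, Apoh. They were taken by symbol from a table of 55487 genes and are Apoa1, Apoa2, Apoa4, Apoa5, Apob, Apoc1, Apoc2, Apoc3, Apoe, and Apoh. Of the 15548 genes that had at least 100 counts in total over all libraries and were tested, these 10 were part without exception.

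Apolipoproteins are the protein coat of the particles that carry triglycerides and cholesterol through the blood. The liver assembles very-low-density lipoprotein around Apob and releases Apoa1 and Apoa2, from which high-density lipoprotein (HDL) is built, while the smaller, exchangeable proteins of the C and E groups and Apoa5 set how quickly a particle loses its triglyceride to lipoprotein lipase and how quickly it is cleared by receptors. Hepatocytes make most of the circulating supply, although Apoe is also made by macrophages and Apoa4 by the enterocytes of the small intestine.

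The study asked what the clock of the hepatocyte contributes to metabolic dysfunction-associated steatohepatitis. Livers of 96 mice on a C57BL/6J background, between 8 and 10 weeks old at the start, were sequenced, 1 library per mouse. Hep-Bmal1KO mice (AlbCre/+; Bmal1flx/flx) carry a Cre driven by the albumin promoter. The study describes their deletion of Bmal1, a core transcription factor of the clock, as specific to hepatocytes. Their Hep-Bmal1WT littermates (Alb+/+; Bmal1flx/flx) carry the same floxed alleles without Cre. Whether other cells of the liver kept Bmal1 was not tested here. Mice of either genotype ate normal chow (NC) or, for 2 weeks, cdHFD, a high-fat diet deficient in choline, and were sampled at zeitgeber time (ZT, hours after lights on) 2, 6, 10, 14, 18, or 22, with 4 mice in each of the 24 groups. By the study's account cdHFD also contained cholesterol, and it had less protein and carbohydrate than NC. The parts of these components in a diet difference cannot be told apart. Each group held males and females, 12 of each per genotype and diet except in Hep-Bmal1WT on cdHFD, which had 13 males and 11 females.

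Counts on genes summed to between 1861740 and 9718615 in a library, with group medians from 5769263 in Hep-Bmal1WT on NC to 7637271 in Hep-Bmal1KO on cdHFD. Reads come from the 3′ portion of the mRNA, so the level of Bmal1 (Arntl in the table) cannot show whether its floxed part is gone, and its mean level differed between the genotype labels by 0.02 (SE 0.25) on the log2 scale on NC and by -0.50 (SE 0.20) on cdHFD, with edgeR adjusted p of 0.976 and 0.104. When libraries were placed by clock genes and by 20 other genotype-dependent genes, 7 of the 96 lay nearer the opposite genotype label on both, 4 of them on NC and 3 on cdHFD. Genotypes are therefore those of the labels, and each comparison was refitted without these 7 libraries. They were chosen by genes that differ between the labels, so leaving them out can widen genotype differences by construction. Such refits are no independent support. The members called were then unchanged except that Apoe lost its rhythm call in Hep-Bmal1WT on NC and Apoa5 joined the sex calls. Each column of the sequencing plate held 1 genotype and 1 diet, so plate column and these conditions cannot be told apart. No label pairs a mouse with one of another group. Mouse numbers in the labels fall in a separate block for each ZT and diet, and both genotypes share that block. What the blocks stand for is not given, so ZT or diet and such a block cannot be told apart.

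The members lie on 5 chromosomes, and 7 of them in clusters. On the mouse assembly GRCm38.p6 (mm10), Apoa1 (chr9:46228630-46230469), Apoc3 (chr9:46233050-46235636), Apoa4 (chr9:46240844-46243458), and Apoa5 (chr9:46268608-46271921) lie within 43.3 kb. Apoc2 (chr7:19671579-19677941), Apoc1 (chr7:19689480-19692659), and Apoe (chr7:19696244-19701310) lie within 29.7 kb. Apoa2 (chr1:171221564-171226379), Apoh (chr11:108395297-108414396), and Apob (chr12:7977629-8016839) stand alone. By coordinates, without regard to strand, the interval of Apoa2 partly overlaps that of Tomm40l, which had 8484 counts over all libraries. Apoc2 lies wholly within the gene model Gm44805 and received 1988 counts over the 96 libraries, between 3 and 49 per library. Gm44805 itself had 680 counts. Reads from the region may be divided between these models, but both counts are low. Whether reads were lost from both models was not tested, and the values of Apoc2 are uncertain.

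Together the members made up a large part of the liver's counted reads. Their share was 8.14% ± 0.64 (SD, n = 24, range 6.80 to 9.41%) in Hep-Bmal1WT on NC, 8.92% ± 0.59 (7.83 to 9.74%) in Hep-Bmal1KO on NC, 7.46% ± 0.64 (6.45 to 9.30%) in Hep-Bmal1WT on cdHFD, and 7.92% ± 0.52 (6.83 to 8.98%) in Hep-Bmal1KO on cdHFD. Apoe alone took 3.13% of all counted reads. Levels below are CPM (counts scaled to a common library size) after trimmed mean of M values (TMM) scaling, and since reads mark the 3′ end they are compared within a gene and not between genes. Differences are log2 fold changes from edgeR, with Benjamini-Hochberg adjustment over all 15548 genes and a call at an adjusted p under 0.05.

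**Figure D1:**
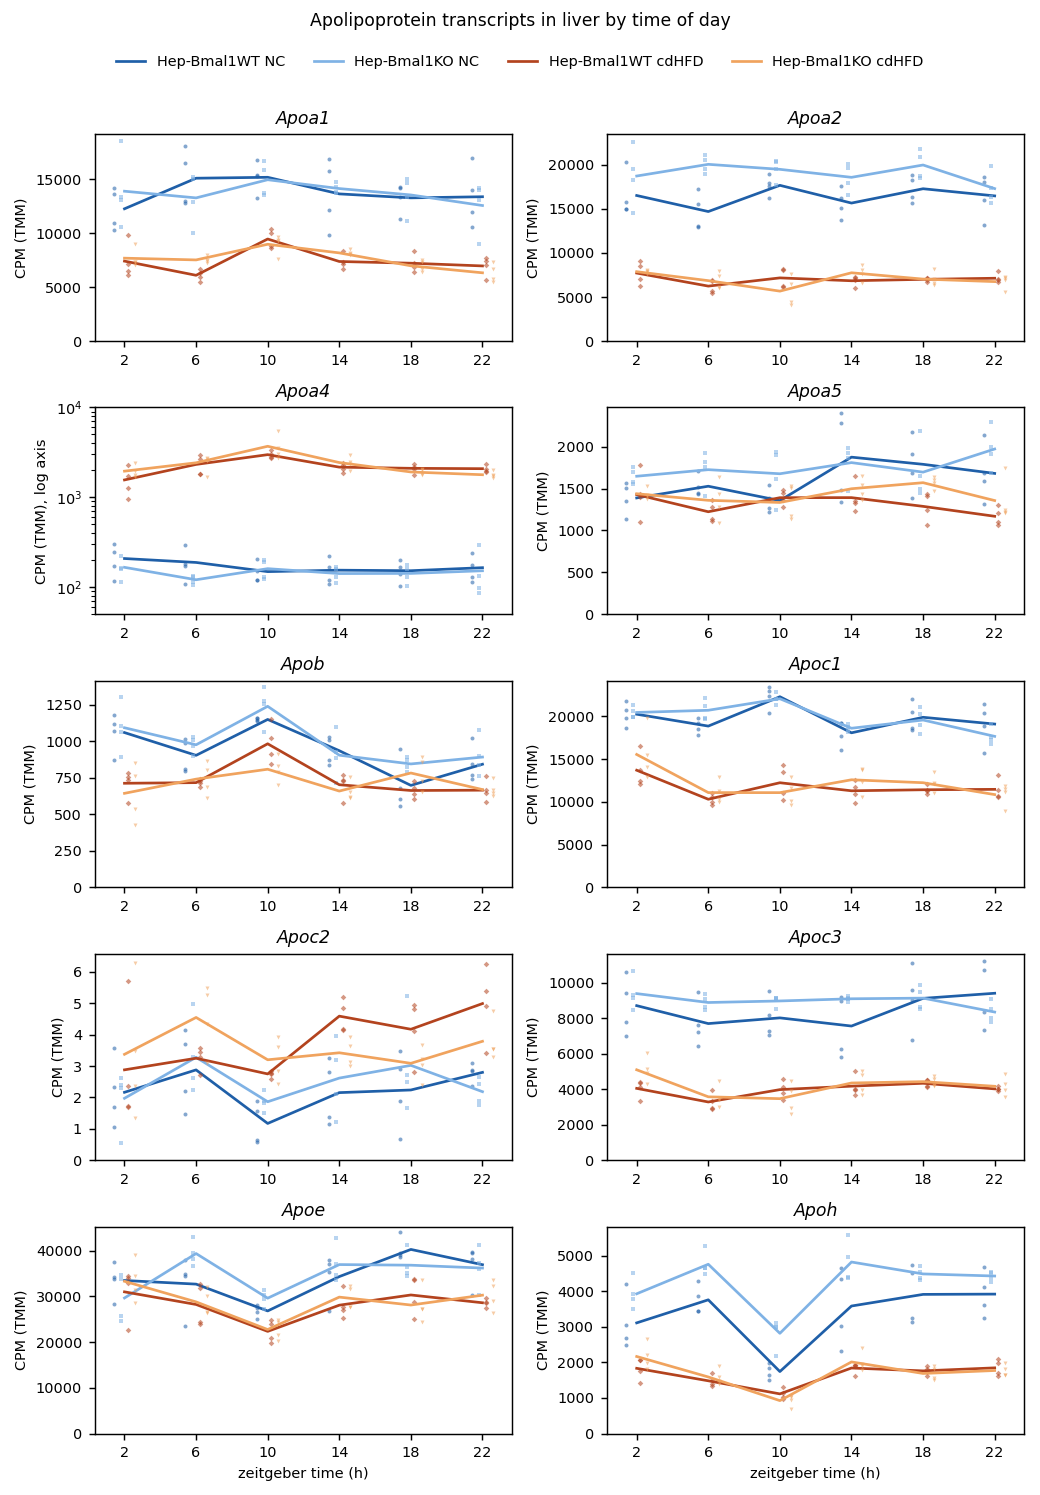
TMM-scaled CPM of each apolipoprotein transcript (y axis, log scale for Apoa4 only) against zeitgeber time in hours (x axis), with 1 point per mouse and lines through the means of 4 mice for each genotype and diet. The 24 cdHFD mice of either genotype lie below the 24 NC mice for Apoa2 and Apoc3 and above them for Apoa4, and Apoh has its lowest mean at ZT10 in each genotype and diet.

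Diet made the largest differences. In both genotypes all 10 members were called between cdHFD and NC, with 8 lower and 2, Apoa4 and Apoc2, higher on cdHFD. The background is high: 55.7% of all tested genes were called in Hep-Bmal1WT, 28.7% higher and 27.0% lower, and 61.9% in Hep-Bmal1KO, 32.4% higher and 29.6% lower. The median log2 difference of the members was -0.54 in Hep-Bmal1WT and -0.58 in Hep-Bmal1KO, against 0.01 and 0.02 for all genes. For Apoa2, Apoa4, and Apoc3 the 24 mice on cdHFD did not overlap the 24 on NC in either genotype, which was so for 3.74% of all genes in Hep-Bmal1WT and 5.74% in Hep-Bmal1KO.

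Apoa4, an intestinal and hepatic apolipoprotein of triglyceride-rich particles and HDL, was the member with the largest difference. In Hep-Bmal1WT its lowest, median, and highest levels were 104, 167, and 299 CPM on NC and 956, 2140, and 3382 CPM on cdHFD. In Hep-Bmal1KO they were 87.02, 132, and 291 CPM on NC and 1658, 2036, and 5507 CPM on cdHFD. Every mouse on cdHFD was thus above every mouse on NC, and the mean was 12.9-fold higher in Hep-Bmal1WT (log2 3.69, SE 0.13, adjusted p = 7.28e-29) and 15.6-fold higher in Hep-Bmal1KO (log2 3.97, SE 0.12, adjusted p = 2.34e-31). At each of the 6 ZTs all 4 mice on cdHFD exceeded all 4 on NC in both genotypes. Of 6 enterocyte markers, the 2 with enough counts to be tested were also higher on cdHFD in both genotypes. Fabp2, with 223011 counts over all libraries, was higher by 1.42 and 1.51 on the log2 scale, and Vil1, with 213 counts, by 1.74 and 1.96. Sis, Lct, Alpi, and Cdh17 had 6, 10, 62, and 75 counts over all 96 libraries. Summed, the 6 markers had 109 to 226 CPM in Hep-Bmal1WT and 91.6 to 266 CPM in Hep-Bmal1KO on NC, and 272 to 586 CPM and 203 to 685 CPM on cdHFD. By these counts the sum is almost wholly Fabp2 and is not a level of 6 markers. Their part in the difference of Apoa4 was not tested.

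After TMM scaling the other members of the same cluster were lower on cdHFD, although for Apoa5 the sign depended on scaling. Apoc3, an inhibitor of lipoprotein lipase and of particle clearance, had a lowest, median, and highest level of 5835, 8290, and 11211 CPM on NC and 2900, 4036, and 5044 CPM on cdHFD in Hep-Bmal1WT. In Hep-Bmal1KO these levels were 7772, 9093, and 10683 CPM on NC and 2613, 4262, and 6056 CPM on cdHFD. The groups did not overlap, and the log2 difference was -1.08 (SE 0.06, adjusted p = 3.43e-20) in Hep-Bmal1WT and -1.11 (SE 0.06, adjusted p = 1.54e-22) in Hep-Bmal1KO. Apoa1, the main protein of HDL and the activator of the enzyme that esterifies its cholesterol, went from a median of 13819 CPM (9803 to 18078) on NC to 7195 CPM (5468 to 10382) on cdHFD in Hep-Bmal1WT. In Hep-Bmal1KO the medians were 13829 CPM (8990 to 18536) and 7475 CPM (5513 to 9625). The ranges of Apoa1 overlapped slightly over the day, but within each of the 6 ZTs all 4 mice on cdHFD were below all 4 on NC in both genotypes. The log2 differences were -0.90 (SE 0.07, adjusted p = 1.12e-16) and -0.86 (SE 0.06, adjusted p = 1.90e-18).

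Apoa5, which promotes triglyceride removal by lipoprotein lipase, differed little and in a way that depended on scaling. Its median was 1514 CPM (1132 to 2402) on NC and 1316 CPM (1064 to 1778) on cdHFD in Hep-Bmal1WT, and 1754 CPM (1250 to 2296) and 1434 CPM (1092 to 1745) in Hep-Bmal1KO. The ranges overlapped in both genotypes, with log2 differences of -0.27 (SE 0.07, adjusted p = 6.96e-04) and -0.30 (SE 0.06, adjusted p = 2.11e-05) after TMM scaling. When libraries were scaled to their plain totals, the sign turned to 0.21 (adjusted p = 0.00541) and 0.18 (adjusted p = 0.00863).

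Apoa2, the HDL protein on chromosome 1, had the largest decrease in both genotypes. Its lowest, median, and highest levels in Hep-Bmal1WT were 12916, 16232, and 20288 CPM on NC and 5422, 6966, and 9117 CPM on cdHFD. In Hep-Bmal1KO they were 14521, 19528, and 22548 CPM on NC and 4087, 7212, and 8637 CPM on cdHFD. The diets did not overlap, and the level was 2.33-fold lower in Hep-Bmal1WT (log2 -1.22, SE 0.05, adjusted p = 2.91e-26) and 2.73-fold lower in Hep-Bmal1KO (log2 -1.45, SE 0.06, adjusted p = 1.38e-25).

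The genes of the chromosome 7 cluster differed in 3 ways. Apoc1, an exchangeable protein that hinders receptor uptake of remnants, had medians of 19551 CPM (15697 to 23480) on NC and 11316 CPM (9603 to 16532) on cdHFD in Hep-Bmal1WT, and of 19907 CPM (16776 to 22869) and 11970 CPM (8964 to 19843) in Hep-Bmal1KO. It was lower on cdHFD by a log2 difference of -0.75 (SE 0.05, adjusted p = 1.75e-19) and -0.71 (SE 0.05, adjusted p = 3.14e-16), with all 4 mice below those on NC at each ZT. Apoe, the ligand by which remnants bind their receptors, overlapped widely between the diets. Its medians were 35105 CPM (23593 to 44008) and 28137 CPM (19773 to 34472) in Hep-Bmal1WT and 34864 CPM (24519 to 43076) and 28157 CPM (20174 to 38985) in Hep-Bmal1KO, NC before cdHFD. The log2 difference of Apoe was -0.27 in both genotypes after TMM scaling (SE 0.06 and 0.06, adjusted p = 3.76e-05 and 7.13e-05) and turned to 0.22 (adjusted p = 8.22e-05) and 0.21 (adjusted p = 3.09e-04) with plain library totals. Apoc2, the activator of lipoprotein lipase, was counted at 2.23 ± 1.04 CPM on NC and 3.77 ± 1.27 CPM on cdHFD in Hep-Bmal1WT and at 2.49 ± 1.06 and 3.57 ± 1.08 CPM in Hep-Bmal1KO (SD, n = 24), differences of 0.78 (SE 0.16, adjusted p = 5.79e-05) and 0.54 (SE 0.15, adjusted p = 0.00144) on the log2 scale. At so few counts the counting error of a single library is large.

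Apob, the structural protein of very-low-density lipoprotein that stays with its particle for life, had medians of 967 CPM (559 to 1180) on NC and 728 CPM (576 to 1154) on cdHFD in Hep-Bmal1WT and of 944 CPM (711 to 1368) and 714 CPM (426 to 912) in Hep-Bmal1KO. The ranges overlapped, and the log2 difference was -0.32 (SE 0.06, adjusted p = 3.77e-06) and -0.46 (SE 0.07, adjusted p = 3.77e-08). With plain totals the difference of Apob was 0.17 (adjusted p = 0.00882) in Hep-Bmal1WT and 0.025 (adjusted p = 0.750) in Hep-Bmal1KO. Apoh, or β2-glycoprotein I, is a plasma protein that binds anionic phospholipid and associates in part with lipoproteins. Its medians were 3349 CPM (1506 to 4737) and 1701 CPM (964 to 2097) in Hep-Bmal1WT and 4387 CPM (2176 to 5567) and 1787 CPM (691 to 2662) in Hep-Bmal1KO. At each ZT all 4 mice on cdHFD had less Apoh than all 4 on NC, and the log2 difference was -0.99 (SE 0.07, adjusted p = 7.08e-17) in Hep-Bmal1WT and -1.34 (SE 0.06, adjusted p = 4.19e-24) in Hep-Bmal1KO.

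**Figure D2:**
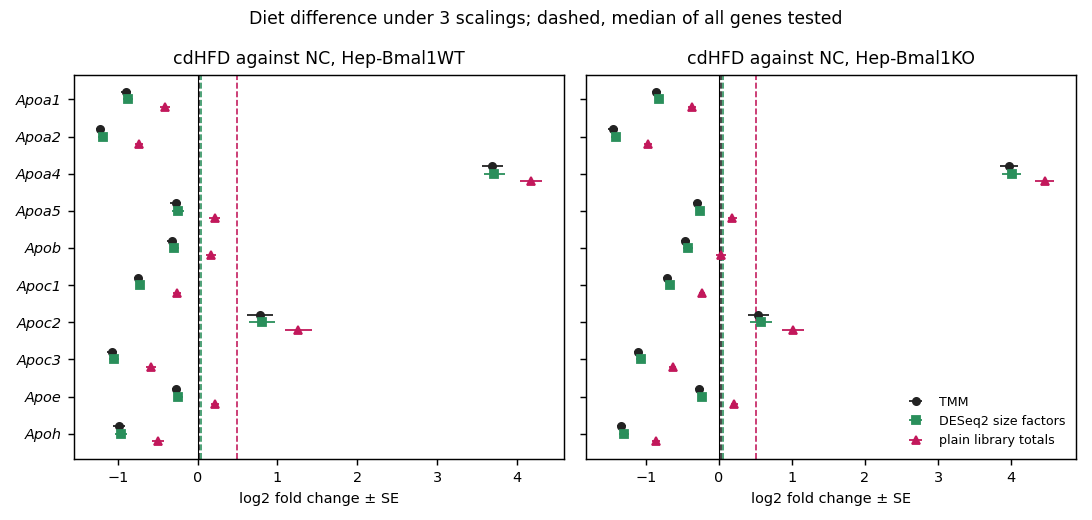
Log2 difference between cdHFD and NC with its SE (x axis) for each member (y axis) in Hep-Bmal1WT (left) and Hep-Bmal1KO (right) under 3 scalings, with dashed lines at the median of all tested genes under each. Plain library totals move the median of all genes to 0.50 in both genotypes, and with it Apoa5, Apob, and Apoe cross 0 while the other 7 keep their direction.

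Scaling thus set the sign of the diet difference for Apoa5, Apob, and Apoe. TMM factors averaged 0.828 and 0.863 in Hep-Bmal1WT and Hep-Bmal1KO on NC against 1.17 and 1.21 on cdHFD. Under plain totals the median log2 difference of all genes was 0.50 in Hep-Bmal1WT and 0.50 in Hep-Bmal1KO, and Apoa5, Apob, and Apoe were below that median. The calls over all genes then shifted from 4461 higher and 4196 lower to 9999 and 1264 in Hep-Bmal1WT and from 5031 and 4600 to 10132 and 1656 in Hep-Bmal1KO. The other 7 members kept their direction: Apoa1 at -0.41 and -0.38, Apoa2 at -0.73 and -0.97, Apoc1 at -0.26 and -0.23, Apoc3 at -0.59 and -0.63, Apoh at -0.50 and -0.86, Apoa4 at 4.18 and 4.46, and Apoc2 at 1.26 and 1.02.

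The cell-type markers of these bulk livers moved with diet as well, and fewer cells of a type cannot be told apart from less RNA per cell. All 5 hepatocyte markers found in the table were lower on cdHFD in both genotypes, by a median of -1.12 in Hep-Bmal1WT and -1.27 in Hep-Bmal1KO on the log2 scale. Their summed level was 93138 to 198627 CPM in Hep-Bmal1WT and 83630 to 200766 CPM in Hep-Bmal1KO on NC, and 48776 to 80963 CPM and 42811 to 80878 CPM on cdHFD. All 11 macrophage markers were higher, by medians of 2.42 and 2.59, with sums of 268 to 698 CPM and 239 to 755 CPM on NC and 1312 to 3097 CPM and 1772 to 3550 CPM on cdHFD. All 7 stellate cell markers were higher too, by medians of 2.04 and 2.30. The part of cell composition in the members' differences was not tested. The hepatocyte and macrophage lists kept these directions under plain totals, with 4 of 5 hepatocyte markers still called in Hep-Bmal1KO.

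Genotype made few differences on NC. Of the 10 members 2 were called, Apoh and Apoa2, both higher in the livers labelled Hep-Bmal1KO, against 12.6% of all genes called and 7.0% called higher. Apoh averaged 3337 ± 1005 CPM in Hep-Bmal1WT and 4206 ± 776 CPM in Hep-Bmal1KO (SD, n = 24), a 1.28-fold difference (log2 0.36, SE 0.07, adjusted p = 1.26e-04). Apoa2 averaged 16394 ± 2015 and 19032 ± 1953 CPM, a 1.16-fold difference (log2 0.21, SE 0.05, adjusted p = 0.00216). The genotypes overlapped for both genes over all ZTs. Means were higher in Hep-Bmal1KO at 6 of 6 ZTs for both, and all 4 Hep-Bmal1KO mice were above all 4 Hep-Bmal1WT mice at 2 ZTs for Apoh and at 1 for Apoa2. Over all genes 1088 were called higher and 872 lower, or 1733 and 551 with plain totals, under which Apoh and Apoa2 remained the members called, at 0.43 and 0.28. Without the 7 libraries nearer the other label, the log2 differences were 0.39 (adjusted p = 3.66e-05) for Apoh and 0.22 (adjusted p = 0.00191) for Apoa2.

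The remaining members did not pass the test on NC. The log2 differences of Hep-Bmal1KO against Hep-Bmal1WT were -0.20 (SE 0.13) for Apoa4, 0.14 for Apoa5, 0.09 for Apob, 0.09 for Apoc3, and 0.17 for Apoc2. Those of Apoa1, Apoc1, and Apoe lay between -0.01 and 0.03. On cdHFD none of the 10 members was called by edgeR, against 9.61% of all genes (718 higher and 776 lower, or 1032 and 518 with plain totals). A single member, Apoa5, had an unadjusted p under 0.05 there, and DESeq2 called 0. The differences on cdHFD ran from -0.07 for Apoc2 to 0.12 (SE 0.05, adjusted p = 0.198) for Apoa5, which was called with plain totals (0.17, adjusted p = 0.0308). Apoh and Apoa2, the pair called on NC, differed on cdHFD by 0.01 (SE 0.06) and -0.01 (SE 0.06). Of the hepatocyte markers on NC, 1 was higher and 1, Alb, lower in Hep-Bmal1KO. Their sum averaged 155768 ± 29878 CPM in Hep-Bmal1WT and 112689 ± 29609 CPM in Hep-Bmal1KO (SD), while the median log2 difference of the list was 0.17. Of the macrophage, stellate, and endothelial markers on NC edgeR called 0 of 11, 0 of 7, and 0 of 6. DESeq2 called none of these either, and 0, 0, and 1 of them had an unadjusted p under 0.05. Of 5 cholangiocyte markers 2 were higher in Hep-Bmal1KO on NC, with sums of 33.2 to 144 CPM in Hep-Bmal1WT and 60.7 to 145 CPM in Hep-Bmal1KO, and of 5 lymphocyte markers 1 was higher. On cdHFD 6 of 7 stellate and 3 of 5 cholangiocyte markers were higher, 4 of 11 macrophage markers were higher and 1 lower, and 1 of 5 hepatocyte markers was lower in Hep-Bmal1KO. The part of these cell types in the members' values was not tested.

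The difference between these genotype differences was tested as an interaction of genotype with diet, for which 3.04% of all genes were called. Apoh was the single member called. Its genotype difference on cdHFD minus that on NC was -0.35 (SE 0.09, adjusted p = 0.0145) on the log2 scale, and -0.37 (adjusted p = 0.00700) without the 7 libraries. It was -0.23 (adjusted p = 0.253) without ZT10. When each of the other ZTs was left out in its place, it lay between -0.41 and -0.36 and stayed called (adjusted p = 0.00512 to 0.0375). Without replicate 1 of each group it was -0.21 (adjusted p = 0.363), and without replicate 2 it was -0.27 (adjusted p = 0.263). In most groups replicates 1 and 2 were males, so these fits also held fewer males than females. Apoa2 had an interaction of -0.23 (SE 0.08, adjusted p = 0.0951), which passed with sex as a covariate (-0.24, adjusted p = 0.0315) and with plain totals (-0.24, adjusted p = 0.0376). The other 8 members ranged from -0.23 for Apoc2 to 0.28 for Apoa4 and were not called.

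**Figure D3:**
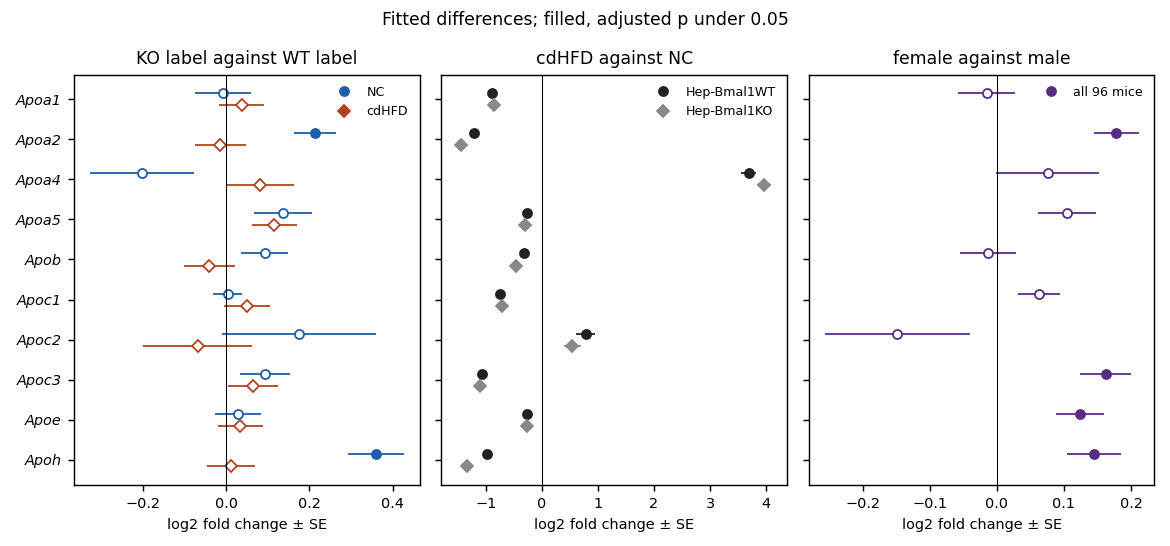
Log2 fold changes with their SE (x axes) for the 10 members (y axis) between genotype labels on each diet (left), between diets in each genotype (middle), and between females and males over all 96 mice (right), with filled points at an adjusted p under 0.05. All 20 diet differences are filled, whereas only Apoa2 and Apoh are filled for genotype, on NC.

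Both genotype differences on NC were looked at by sex. In males Apoh averaged 2867 ± 696 CPM in Hep-Bmal1WT and 4070 ± 606 CPM in Hep-Bmal1KO (SD, n = 12), a log2 difference of 0.54 (SE 0.07, adjusted p = 1.61e-06). In females it averaged 3808 ± 1069 and 4342 ± 923 CPM (n = 12), a difference of 0.22 (SE 0.08, adjusted p = 0.133). Males alone gave 4 calls among the members, adding Apoa5 (0.28, adjusted p = 0.00915) and Apoc3 (0.30, adjusted p = 0.00209). Females alone gave 1 call, Apoa4 (-0.44, adjusted p = 0.0342), and Apoa2 was 0.20 (adjusted p = 0.131). Over all genes females alone gave 578 calls, against 1960 of 15548 with both sexes, so fewer calls in females are not particular to the members. The number over all genes in males alone is not given here. Without the libraries nearer the other label the calls were the same 4 and 1, with Apoh at 0.54 (adjusted p = 1.21e-06) in males and 0.26 (adjusted p = 0.0513) in females. Whether the genotype difference itself differed between the sexes was not tested.

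Across all 96 mice, with genotype, diet, and ZT in the fit, 4 members were higher in females and none was called lower, against 17.2% of all genes called and 8.99% called higher. The log2 differences were 0.18 for Apoa2 (SE 0.03, adjusted p = 2.24e-05), 0.16 for Apoc3 (SE 0.04, adjusted p = 8.33e-04), 0.14 for Apoh (SE 0.04, adjusted p = 0.00638), and 0.12 for Apoe (SE 0.04, adjusted p = 0.00686). Apoa5 was at 0.10 (adjusted p = 0.0785). When replicate 3 of each group was left out, the single call that remained was Apoa2 (0.15, adjusted p = 0.0111), and without replicate 1 the calls were Apoa2 and Apoc3. Leaving out replicate 3 removed mostly females, and leaving out replicate 1 mostly males. On cdHFD the levels of Apoh in males and females were 1649 ± 337 and 1643 ± 328 CPM in Hep-Bmal1WT (SD, n = 13 and 11) and 1670 ± 533 and 1715 ± 386 CPM in Hep-Bmal1KO (n = 12 each).

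**Figure D4:**
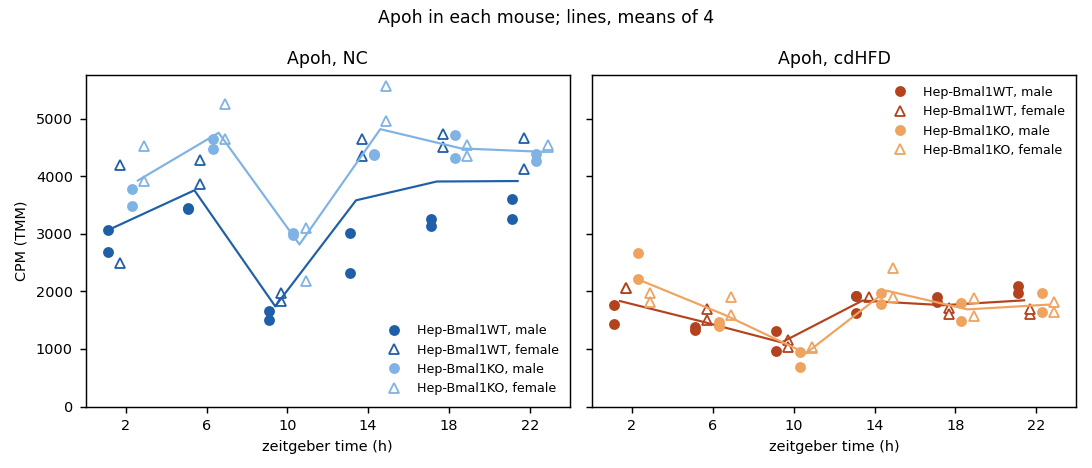
TMM-scaled CPM of Apoh (y axis) in each mouse against zeitgeber time in hours (x axis), on NC (left) and cdHFD (right), with filled circles for males, open triangles for females, and lines through the means of 4 mice. On NC the 4 Hep-Bmal1WT mice at ZT10 lie between 1506 and 1974 CPM and the 4 Hep-Bmal1KO mice between 2176 and 3097 CPM, below every mouse of their genotype at the other times.

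Time of day was next examined, first as a fitted 24-hour curve in each genotype and diet. In Hep-Bmal1WT on NC 2 members were called rhythmic, against 19.1% of all genes: Apob (adjusted p = 0.0486), with a fitted peak at ZT 7.29 ± 1.16 (SE), and Apoe (adjusted p = 0.0487), with a peak at ZT 20.2 ± 0.94. Their amplitudes were 0.25 (SE 0.08) and 0.23 (SE 0.06) on the log2-like scale of variance-stabilized counts. Both sat at the threshold, and without the libraries nearer the other label Apob was the single call (adjusted p = 0.0478). In Hep-Bmal1WT on cdHFD the calls were Apoh (adjusted p = 0.0161, peak at ZT 20.9 ± 0.88, amplitude 0.30) and Apob (adjusted p = 0.0309, peak at ZT 9.37 ± 1.10, amplitude 0.20), against 14.6% of all genes, and Apoa4 had an adjusted p of 0.0529.

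In the livers labelled Hep-Bmal1KO fewer genes were called overall. On NC edgeR called 0 of the 10 members rhythmic, against 4.34% of all genes, with 2 members at an unadjusted p under 0.05, 1 called by DESeq2, and 0 by an F test of the cosinor curve. Apob had an adjusted p of 0.121 there, with a fitted peak at ZT 7.29 and an amplitude of 0.20 (SE 0.06), beside 0.25 (SE 0.08) in Hep-Bmal1WT. On cdHFD Apoa4 was called (adjusted p = 0.00216), against 3.83% of all genes, with a peak at ZT 10.03 ± 0.74 and an amplitude of 0.45 (SE 0.09). Apoa1 was not (adjusted p = 0.0941), with a peak at the same hour and an amplitude of 0.21 (SE 0.04).

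Tests of the differences between these rhythms called no member. For genotype edgeR called 0 of 10 on NC and 0 of 10 on cdHFD, against 0.392% and 0.424% of all genes, with 0 and 1 members at an unadjusted p under 0.05. For diet in Hep-Bmal1WT it called 0 of 10, against 6.19% of all genes, with 1 member at an unadjusted p under 0.05, Apoa4 (adjusted p = 0.154). DESeq2 and the cosinor F test called 0 of 10 in each of these comparisons.

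**Figure D5:**
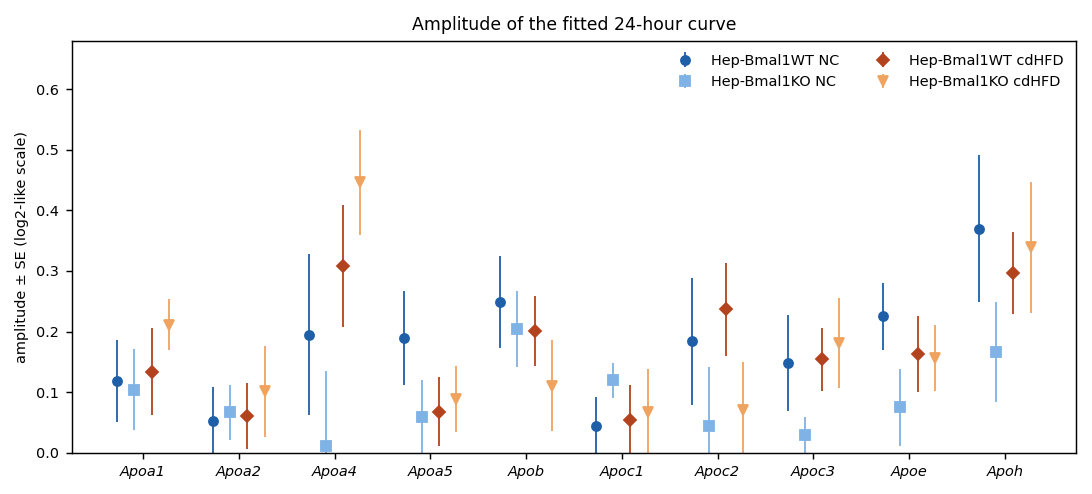
Amplitude of the fitted 24-hour curve on the log2-like scale of variance-stabilized counts with its SE (y axis) for each member (x axis) in the 4 combinations of genotype and diet. The largest amplitude is that of Apoa4 in Hep-Bmal1KO on cdHFD (0.45), and the amplitudes of Apoh run from 0.17 to 0.37.

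Apoh had 1 low time, ZT10, in each genotype and diet. In Hep-Bmal1WT on NC the 4 mice at ZT10 had 1506, 1658, 1829, and 1974 CPM, and the other 20 mice 2313 to 4737 CPM. In Hep-Bmal1KO on NC they had 3007, 2986, 2176, and 3097 CPM, the value of 2176 being from a library nearer the other label, against 3487 to 5567 CPM in the other 20. On cdHFD the ZT10 mice had 1312, 964, 1148, and 1034 CPM in Hep-Bmal1WT, against 1330 to 2097 CPM, and 691, 948, 1019, and 1043 CPM in Hep-Bmal1KO, against 1394 to 2662 CPM. Every mouse at ZT10 was therefore below every mouse of its genotype and diet at the other times. The highest ZT mean was 2.25, 1.71, 1.66, and 2.34 times the lowest in Hep-Bmal1WT and Hep-Bmal1KO on NC and in Hep-Bmal1WT and Hep-Bmal1KO on cdHFD.

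A test for any difference between ZTs, without a curve, was added for this reason after the values had been seen. It called Apoh in all 4 combinations, which restates the values that prompted it and adds no support to them. Apob was called in Hep-Bmal1WT on NC (adjusted p = 0.00662), in Hep-Bmal1WT on cdHFD (0.00302), and in Hep-Bmal1KO on NC (0.0226). Apoa4 was called on cdHFD, at 0.0143 in Hep-Bmal1WT and 0.00166 in Hep-Bmal1KO. With Apoh, 2 and 3 members were called in Hep-Bmal1WT and Hep-Bmal1KO on NC and 4 and 2 on cdHFD, against 21.2%, 13.2%, 20.3%, and 13.3% of all genes. In Hep-Bmal1KO on NC and in Hep-Bmal1WT on cdHFD these counts include a member not named in this paragraph.

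Other members also had extreme means at ZT10, although for Apoa1, Apoe, and Apoa4 the mice of ZT10 overlapped those of other times in each genotype and diet. Apob and Apoa1 had their highest ZT mean there in each genotype and diet and Apoe its lowest, some by little, as with Apoa1 in Hep-Bmal1WT on NC (15203 CPM at ZT10 and 15117 CPM at ZT6). Only Apob in Hep-Bmal1WT on cdHFD, beside Apoh, stood apart, where the 4 ZT10 mice had 843 to 1154 CPM of Apob, above all 20 others (576 to 785 CPM). Apoe averaged 26814 CPM at ZT10 and 40269 CPM at ZT18 in Hep-Bmal1WT on NC, its lowest and highest times. On cdHFD Apoa4 was highest at ZT10, where the 4 mice had 2716 to 3382 CPM in Hep-Bmal1WT and 2709 to 5507 CPM in Hep-Bmal1KO, and the ZT means ran from 1561 to 2983 CPM and from 1783 to 3697 CPM. Without ZT10 no member was called rhythmic by the 24-hour curve in any of the 4 combinations. Calls over all 15548 genes then fell to 958 on NC and 1342 on cdHFD in Hep-Bmal1WT, and to 246 and 348 in Hep-Bmal1KO. No other ZT was left out of the rhythm fits, so whether the loss is particular to ZT10 was not tested. ZT10 libraries shared plate columns with those of ZT14 and plate rows with those of ZT2 and ZT18, and the part of plate position was not tested. The ZT10 mice of each diet also had their own block of mouse numbers, as did those of every other ZT. Time of day and such a block cannot be told apart.

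The remaining apolipoprotein genes and the machinery of lipoprotein metabolism were described by lists. Of 12 other apolipoprotein genes 11 were tested, and on cdHFD 7 were lower and 3 higher in Hep-Bmal1WT and 8 lower and 2 higher in Hep-Bmal1KO, with list medians of -0.42 and -0.79. Apom, which carries sphingosine 1-phosphate on HDL, was at -0.89 (SE 0.09) and -0.80 (SE 0.11), and Apof, an inhibitor of cholesteryl ester transfer, at -0.40 and -0.72. The higher ones were Clu and the acute-phase genes Saa1 and, in Hep-Bmal1WT, Saa2, a pair so alike that reads may be divided between them. Apoc4, the neighbour of Apoc2, was at -0.42 in both genotypes but at 0.07 and 0.06 with plain totals, under which 4 of the list were called lower and 4 higher in Hep-Bmal1WT. On NC Apof (0.46) and Apon (0.49) were higher and Saa4 (-0.57) and Apom (-0.34) lower in Hep-Bmal1KO. On cdHFD 5 of the 11 were lower in Hep-Bmal1KO and none was called higher (7 lower and 1 higher without the 7 libraries), Saa4 at -0.65 and Apol9a, whose sequence is close to that of Apol9b, at -0.84 among them.

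Of 10 genes of lipoprotein assembly and secretion, 6 were lower and 2 higher on cdHFD in either genotype. Mttp, which loads lipid onto Apob, was at -0.59 (SE 0.06) and -0.67 (SE 0.05), Sar1b, a coat protein of the vesicles that export the particle, at -0.64 and -0.77, and Mia2, a cargo receptor at their exit sites, at -0.50 and -0.57. Apobec1, the enzyme that edits Apob mRNA, was higher by 1.18 (SE 0.10) and 1.40 (SE 0.08). With plain totals 0 of the 10 were called lower and 4 higher in Hep-Bmal1WT, and 2 lower and 5 higher in Hep-Bmal1KO. On cdHFD Mttp (-0.17), Sar1b (-0.34), and Mia2 (-0.19) were lower and Apobec1 (0.20) higher in Hep-Bmal1KO than in Hep-Bmal1WT, while none of these differences was called as an interaction. With plain totals 1 gene of the list was higher and 1 lower, and 0 to 4 genes of the list were called with a replicate left out.

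Of 7 genes that form and remodel HDL, 3 were higher and 3 lower on cdHFD in Hep-Bmal1WT and 4 higher and 3 lower in Hep-Bmal1KO, with list medians of 0.11 and 0.15. The lower ones, which were lower with plain totals too, were Lcat, the enzyme activated by Apoa1 (-0.72 and -0.82), the hepatic lipase gene Lipc (-1.06 and -1.44), and the HDL-bound esterase Pon1 (-0.998 and -1.27). Scarb1, the HDL receptor, was higher by 0.53 and 0.19 and Pltp, which transfers phospholipid between particles, by 0.32 and 1.26. On NC Lipc (0.55), Scarb1 (0.35), and Pon1 (0.33) were higher and Pltp lower (-0.75) in Hep-Bmal1KO. On cdHFD edgeR and DESeq2 each called 0 of the 7 between genotypes, with 1 at an unadjusted p under 0.05 and 1 called without the 7 libraries nearer the other label. Interactions were called for Pltp (0.95, adjusted p = 1.65e-04) and Scarb1 (-0.33, adjusted p = 0.0478).

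Among genes around lipoprotein lipase, which the C proteins and Apoa5 act on, Angptl8 (-1.27 and -1.06), which encodes an inhibitor made by hepatocytes, and the lipase maturation factor Lmf1 (-0.66 and -0.86) were lower on cdHFD. Lpl itself was higher on cdHFD in Hep-Bmal1WT (2.38, SE 0.30) and at 0.22 (SE 0.19) in Hep-Bmal1KO, was higher in Hep-Bmal1KO than in Hep-Bmal1WT on both diets (2.99, SE 0.36, on NC and 0.83, SE 0.10, on cdHFD), and had an interaction of -2.15 (SE 0.35, adjusted p = 2.41e-05). Of 6 uptake receptors and partners 4 were lower and none was called higher on cdHFD in either genotype, but with plain totals 5 were higher and 0 lower in Hep-Bmal1WT and 3 higher and 1 lower in Hep-Bmal1KO. Lsr, a remnant receptor, was lower in Hep-Bmal1KO on NC (-0.44) and on cdHFD (-0.58).

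Of 13 transcription factors that act on apolipoprotein genes, 10 were lower on cdHFD in Hep-Bmal1WT and 9 in Hep-Bmal1KO, none was called higher, and the list medians were -0.55 and -0.43. Hnf4a, a main activator of apolipoprotein genes in hepatocytes, was at -0.81 (SE 0.06) and -0.77 (SE 0.06), and Mlxipl, the carbohydrate-responsive factor, at -1.17 and -1.26. With plain totals 4 of the list were called lower in each genotype and 2 and 3 higher. Between genotypes 6 of the 13 were lower in Hep-Bmal1KO on NC and 7 on cdHFD with none called higher, beside 872 and 776 of all 15548 genes called lower. With a replicate left out 3 to 7 of the list were called on NC and 4 to 7 on cdHFD, and without the 7 libraries 8 were lower on each diet and 1 higher on cdHFD. Nr1d1 is in this list and also among the clock genes by which those libraries were chosen. Hnf4a was at -0.29 and -0.25 and Mlxipl at -0.57 and -0.66 on NC and cdHFD. Neither edgeR nor DESeq2 called any of the 13 as an interaction, 2 had an unadjusted p under 0.05, and 1 was called without the 7 libraries.

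Patterns over the 24 group means were last compared, by Pearson's r of log2 levels with 6895 genes of at least 10 CPM on average. These values are a description, since the points share the diet difference and plate. Apoa2 was most like Cyp2c54 (r = 0.995), Apoc3 most like Acadsb (0.988), Apoh most like Psmb7 (0.981), Apoa1 most like Upb1 (0.974), and Apoc1 most like Azgp1 (0.974). Apoa4 was most like Cybb (0.991), a gene of phagocytes. The remaining members were less closely matched, with Apob nearest Zdhhc9 (0.940), Apoe nearest Tm2d3 (0.937), Apoc2 nearest Clu (0.889), and Apoa5 nearest Ndufaf2 (0.859). Among the members themselves, Apoa2 and Apoc3 had r = 0.984, Apoa2 and Apoa4 r = -0.986, Apoe and Apoh r = 0.886, and Apob and Apoe, whose extreme means both fell at ZT10 but in opposite directions, r = -0.01.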

How the data were processed

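Livers were measured by BRB-seq, a barcoded method that sequences the 3′ portion of mRNA. The authors split the reads by barcode and used STAR for alignment to mm10, and the deposited values are raw counts for each gene, not normalized (HTSeq and featureCounts are both named). Whether reads of 1 molecule were collapsed is not given in the sources used here. Reads not assigned to a gene (22.6 to 39.9% of a library) were left out of library sizes. No pair of libraries held identical counts.

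Genotype, diet, ZT, and sex came from each library's label. The 10 members and the gene lists were chosen with earlier results of these data known, and nothing here is independent support for them. Symbols are those of the table, positions came from RefSeq's annotation of GRCm38.p6, and no sequences are shown.

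Genes with at least 100 counts over the 96 libraries were tested in R 4.3.3 with edgeR 4.0.16 (TMM scaling, quasi-likelihood F test, Benjamini-Hochberg adjustment over all genes, threshold 0.05). Genotype was compared within a diet and diet within a genotype, in 48 libraries with ZT as a factor, and the interaction and sex in all 96. Rhythm was the joint test of a sine and a cosine with a 24 hour period, and differences in rhythm were the interaction of these terms with genotype or diet. Amplitude and peak were fitted to variance-stabilized values from DESeq2, on a log2-like scale. Every member is named, from each list up to 4 called genes per comparison with the smallest p, and for each member the gene most like it. Clu, Saa1, and Saa2 were named after their values had been seen. Alternatives were DESeq2 1.42.0, its size factors, plain totals, filters, each replicate left out, sex as a covariate, each sex alone, the 7 libraries left out, and, added after the data had been seen, single ZTs left out, each sex alone without the 7 libraries, and a test for any difference between ZTs. The authors' own rhythm tools were not used. The scripts were tested on simulated data.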

Additional observations from a re-analysis of the deposited data

Results flagged for a closer look

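Dixon's criterion, which marks about 1 set in 20 by chance, was applied to 240 sets of 4 values, 1 for each member in each of the 24 groups. These sets share mice and are not independent. In 13 of them, about as many as chance gives, 1 mouse stood apart from the other 3 of its group. For Apoa1 these were a male of Hep-Bmal1KO on cdHFD at ZT2 (replicate 3) with 8998 CPM, the others having 7079 to 7365 CPM, and a male at ZT10 (replicate 2) with 7599 CPM, the others having 9311 to 9625 CPM. For Apoa2 a male of Hep-Bmal1KO on cdHFD at ZT22 (replicate 2) had 5599 CPM beside 6983 to 7258 CPM, and a female of Hep-Bmal1WT on NC at ZT2 (replicate 4) had 20288 CPM beside 14982 to 15844 CPM. The same male at ZT22 had 1745 CPM of Apoa5 beside 1214 to 1245 CPM. For Apoc3 a male of Hep-Bmal1KO on NC at ZT10 (replicate 1) had 8506 CPM beside 9104 to 9156 CPM.

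Apoe was marked in 3 groups of Hep-Bmal1WT. A female on NC at ZT18 (replicate 3) had 44008 CPM beside 38584 to 39411 CPM, a male on NC at ZT22 (replicate 2) had 30321 CPM beside 38191 to 39754 CPM, and a male on cdHFD at ZT2 (replicate 3) had 22614 CPM beside 32881 to 34472 CPM. Apoc2, with its few counts, was marked in a male of Hep-Bmal1KO on NC at ZT2 (replicate 2) with 0.553 CPM beside 2.31 to 2.63 CPM and in a male of Hep-Bmal1WT on cdHFD at ZT2 (replicate 4) with 5.71 CPM beside 1.71 to 2.37 CPM. For Apoh these were a female labelled Hep-Bmal1KO on NC at ZT10 (replicate 3) with 2176 CPM beside 2986 to 3097 CPM, whose library lay nearer the other label, and a male of Hep-Bmal1WT on cdHFD at ZT14 (replicate 3) with 1627 CPM beside 1899 to 1927 CPM.

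Between diets, the genotype difference of Apoh differed by -0.35 on the log2 scale (SE 0.09, edgeR interaction, adjusted p = 0.0145), being 0.36 on NC and 0.01 on cdHFD.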

How the results depend on the processing

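Diet differences called 9 or 10 of the 10 members under each alternative. With plain library totals Apoa5 (0.21 and 0.18), Apob (0.17 and 0.025), and Apoe (0.22 and 0.21) changed sign in Hep-Bmal1WT and Hep-Bmal1KO, by construction of the scaling, which moved the median of all genes to 0.50. Of the genotype calls on NC (2 members), males alone gave 4 and females alone 1, and on cdHFD (0 members) plain totals gave 1. The interaction (1 member) gave 2 with plain totals, 2 with sex as a covariate, 0 without ZT10, and 0 to 1 with a replicate left out, and the sex difference (4 members) 1 to 4. Rhythm in Hep-Bmal1WT on NC (2 members) gave 1 with DESeq2 size factors, 1 with plain totals, 0 with no filter, 1 without the 7 libraries, 1 by the cosinor F test, 0 without ZT10, and 0 to 1 with a replicate left out. In Hep-Bmal1WT on cdHFD (2 members) it gave 1 by the cosinor F test, 4 for any difference between ZTs, 0 without ZT10, and 0 to 1 with a replicate left out. In Hep-Bmal1KO on NC (0 members) it gave 1 with DESeq2 and 3 for any difference between ZTs, and on cdHFD (1 member) 2 each with plain totals, DESeq2, the cosinor F test, any difference between ZTs, and an unadjusted p under 0.01, and 0 without ZT10. The subsets hold fewer mice, and the causes of these changes were not tested. Of the members' log2 differences under the alternatives, 829 kept their side of the threshold, of which 57 differed in sign with no call in either fit, while 11 gained and 14 lost the call and 6 called ones, given above, changed sign.

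Over all genes, the genotype count on NC (1960) became 578 in females alone and 940 to 1630 with a replicate left out, and that on cdHFD (1494) 802 in males, 647 in females, and 522 to 1376. The interaction (473) became 919 without the 7 libraries, 211 without ZT10, 736, 254, 301, and 260 without ZT2, 14, 18, and 22, and 103 to 373 with a replicate left out, and the sex count (2679) 1585 to 1930. Rhythm counts in Hep-Bmal1WT became 958 on NC (2969) and 1342 on cdHFD (2264) without ZT10, and 1462 to 1984 and 902 to 1494 with a replicate left out. In Hep-Bmal1KO they became 1149 and 1045 with DESeq2, 340 and 360 by the cosinor F test, 2049 and 2068 for any difference between ZTs, 246 and 348 without ZT10, and 155 to 202 and 156 to 308 with a replicate left out (675 on NC and 596 on cdHFD). Differences in rhythm by genotype (61 on NC and 66 on cdHFD) became 0 and 9 with the stricter filter, 137 and 164 with no filter, 1 and 5 by the cosinor F test, and 1 to 38 and 12 to 35 with a replicate left out. By diet (963) they became 348 to 534. No paired analysis was possible because replicate numbers follow the order of the libraries and link no mice. In most groups that order puts males before females, so fits with a replicate left out hold unequal numbers of the sexes.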
